A study of Mus musculus with 20 samples.

Results

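The 8 genes described here encode fibronectin (Fn1), thrombospondin-1 (Thbs1) and cell surface proteins that bind matrix: the hyaluronan receptor Cd44, the integrin subunits Itga4, Itga5, Itgb1 and Itgb3, and Cd47, a receptor of thrombospondin-1. They were picked as a list of genes, 8 of the 37620 in the gene count table, and all 8 were found there by symbol. Fn1 was chosen by the inclusion of its extra domain A (EDA) exon in these same mice and comparisons, so every Fn1 value below is a description and none is tested. The other 7 were listed for their function with earlier results of these data known, and they are judged only against thresholds set over all genes or all splicing events.

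Bulk bone marrow RNA came from 20 mice that had been lethally irradiated and given marrow of transgenic donors, several donors being pooled. The recipients were (C57BL/6 × 129S4Sv/Jae)F1 animals, and donors and recipients were young adults. All donor cells carried the doxycycline-controlled activator rtTA and a transgene of the splicing factor U2AF1, either U2AF1(WT) or the mutant U2AF1(S34F), and all mice ate doxycycline chow (625 ppm) for 7 days. On the last 5 of those days they were infused with sudemycin D6, a splicing modulator whose target is the SF3B1 protein of the spliceosome, or with vehicle, a cyclodextrin solution. The groups, of 5 mice each, are named WT-vehicle, WT-sudemycin, S34F-vehicle and S34F-sudemycin below. The promoter that drives rtTA is not given in the sources used here, and the recipients' own stromal cells are not transgenic. Nothing in the labels says which mice shared a donor pool, so p-values measure the spread between recipient mice.

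Fibronectin is a large glycoprotein that cells assemble into matrix fibrils. Its transcript is spliced in 3 places: the EDA and EDB exons, each coding for a single fibronectin repeat, are kept or skipped, and the variable region (IIICS) is joined at different 3′ splice sites. Integrin α5β1 (Itga5 with Itgb1) binds the RGD motif of fibronectin, and α4β1 (Itga4 with Itgb1) binds a site in the variable region and also VCAM-1, which holds progenitors in the marrow. Itgb3 pairs with Itga2b on platelets and megakaryocytes as the fibrinogen receptor. Cd44 can carry a stretch of variable exons, v1 to v10, in its stem, and blood cells mostly use the standard form without them. Cd47 binds thrombospondin-1 and SIRPα, through which it restrains phagocytosis, and alternative exons change its cytoplasmic tail. U2AF1 contacts the AG that ends an intron, and the S34F mutant is known for a changed preference for the base in front of that AG.

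The sequences on which the splicing results turn are shown first, from the mouse genome build NCBIM37 (mm9), 5′ to 3′ on the strand of the gene. Lower case marks the end of the intron and capitals mark exon bases. The EDA exon (chr1:71650234-71650503, minus strand, 270 bases, which is 90 codons) is shown whole because it is the exon that singled out Fn1, together with the start of the exon that follows it.
Fn1 EDA exon: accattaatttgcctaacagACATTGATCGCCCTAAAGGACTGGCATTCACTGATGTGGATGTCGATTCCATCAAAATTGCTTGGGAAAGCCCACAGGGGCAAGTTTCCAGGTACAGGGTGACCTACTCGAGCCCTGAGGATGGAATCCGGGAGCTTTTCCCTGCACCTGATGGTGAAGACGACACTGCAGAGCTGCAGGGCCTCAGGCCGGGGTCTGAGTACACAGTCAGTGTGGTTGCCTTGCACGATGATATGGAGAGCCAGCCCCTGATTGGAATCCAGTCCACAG
Fn1 exon after EDA: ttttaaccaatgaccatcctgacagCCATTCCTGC
The 3 acceptors of the fibronectin variable region compete for the same 5′ splice site. In the shorter forms, the lower-case bases are exon in the longer form.
Fn1 variable region, long form: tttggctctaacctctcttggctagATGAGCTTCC
Fn1 variable region, 75 bases shorter: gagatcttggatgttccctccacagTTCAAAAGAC
Fn1 variable region, 360 bases shorter: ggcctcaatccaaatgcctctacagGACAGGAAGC
The stretch of 75 bases that only the long form keeps (chr1:71644247-71644321) codes for the start of the variable region, which is known to hold CS1, the main site for α4β1.
Fn1 first segment of the variable region: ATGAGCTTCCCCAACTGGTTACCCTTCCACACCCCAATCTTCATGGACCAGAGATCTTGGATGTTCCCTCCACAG
For Cd47, the 63-base exon (chr16:49869131-49869193, plus strand) and the 32-base exon (chr16:49906894-49906925) are shown because their inclusion was called different in some comparisons. An exon of 25 bases that the annotation used does not hold (chr16:49908167-49908191) is shown because it is described below, without a test.
Cd47 63-base exon: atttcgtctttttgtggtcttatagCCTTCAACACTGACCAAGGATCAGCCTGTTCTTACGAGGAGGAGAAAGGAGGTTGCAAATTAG
Cd47 32-base exon: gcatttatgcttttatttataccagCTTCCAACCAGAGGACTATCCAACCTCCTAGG
Cd47 unannotated exon: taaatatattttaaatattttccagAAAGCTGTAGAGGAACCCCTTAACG
For Cd44, v3 (chr2:102685442-102685567, minus strand) and the constant exon after the variable exons are shown, since both are among the acceptors that compete for the upstream constant exon.
Cd44 v3 exon: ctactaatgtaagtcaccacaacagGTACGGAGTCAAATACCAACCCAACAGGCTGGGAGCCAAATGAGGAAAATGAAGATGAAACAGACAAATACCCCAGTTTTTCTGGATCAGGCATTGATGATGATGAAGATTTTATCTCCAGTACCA
Cd44 constant exon after the variable region: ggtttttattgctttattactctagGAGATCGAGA

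The base in front of the AG was T at the long form of the Fn1 variable region, at the Cd47 63-base exon and at the Cd44 constant exon. It was C at the Fn1 EDA exon and the exon after it, at both shorter acceptors of the Fn1 variable region, at the Cd47 32-base and unannotated exons and at Cd44 v3. Among acceptors of junctions in these data with both ends annotated, 165291 ended in AG. The base in front of it was C in 64.2% of them, T in 29.6%, A in 5.82% and G in 0.361%. These letters describe the sites, and their part in the values below was not tested.

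Each mouse had 41145892 to 62138138 gene counts and 34384214 to 64813149 junction counts. Levels are given as CPM, a gene's counts relative to the TMM-scaled size of its library. U2af1 was at 36.1 ± 1.38, 42.7 ± 3.88, 51.0 ± 3.32 and 54.7 ± 2.79 CPM (mean ± SD, n = 5) in the 4 groups in the order given above, and reads of the transgene were not separated from it here. All 10 U2AF1(WT) mice had between 39145 and 78640 counts on Xist and all 10 U2AF1(S34F) mice between 1 and 8, while the sum of 4 Y-linked genes was 0 to 4 and 10270 to 15034, so differences by transgene and differences that go with sex-linked transcripts cannot be told apart in any comparison of genotypes. Marrow markers were present: 12 neutrophil genes summed to between 60888 and 142363 CPM per mouse, 14 monocyte and macrophage genes to 1606 to 3049, 11 erythroid genes to 264 to 970 and 14 megakaryocyte and platelet genes to 60.6 to 119. In bulk RNA, fewer cells of a type and less RNA per cell cannot be told apart.

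**Figure D1:**
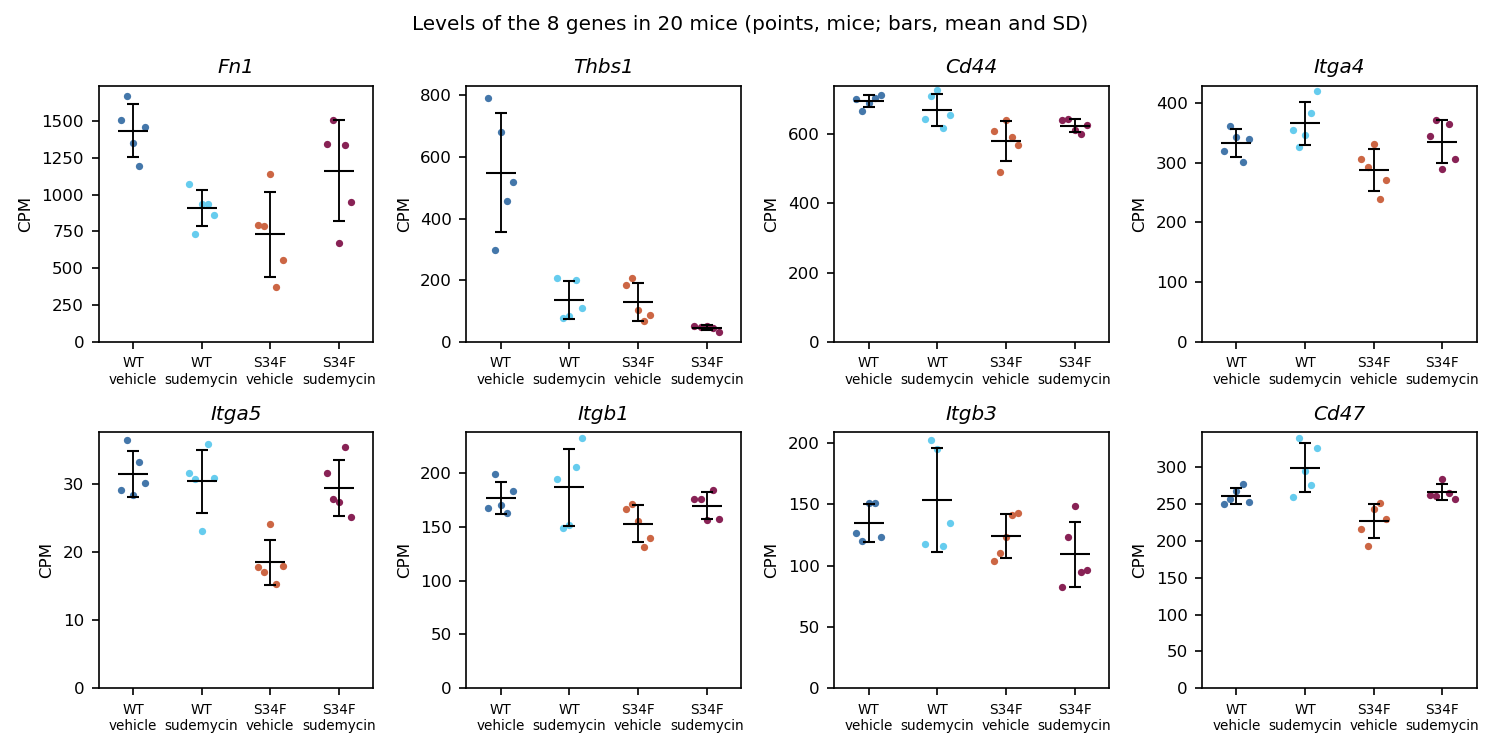
Levels of the 8 genes in CPM (linear axis from 0) in each of the 20 mice, with the mean and SD of each group of 5. Thbs1 steps down from a mean of 549 CPM in WT-vehicle mice to 46.0 in S34F-sudemycin mice, while Itga5 is low in the S34F-vehicle group alone, at 18.5 CPM.

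Levels per kilobase of exon allow a rough comparison between genes, with the length taken over all annotated exons of a gene. On that scale Fn1 had the highest mean of the 8 in every group, with 172 ± 21.5, 109 ± 14.8, 87.4 ± 34.7 and 139 ± 41.1 CPM per kilobase (mean ± SD, n = 5) in WT-vehicle, WT-sudemycin, S34F-vehicle and S34F-sudemycin mice. Cd44 came second in every group, with means of 84.7 to 102, and in S34F-vehicle mice its range of 71.6 to 93.5 lay within the range of Fn1, 44.4 to 137. Thbs1 was the third in WT-vehicle mice at 90.4 ± 31.7, where it overlapped Cd44, and seventh in S34F-sudemycin mice at 7.58 ± 1.30, where its highest mouse (8.60) lay above the lowest mouse of Itga5 (5.72). Itga5 had the lowest mean in every group, 4.21 to 7.19 CPM per kilobase. Its partner Itgb1 was at 37.4 to 45.7, and Itga4, the other alpha subunit that pairs with Itgb1, at 20.6 to 26.2. This order of Itgb1 and Itga4 rests on the lengths used, 4081 and 13978 bases. In CPM, Itga4 had the higher mean, at 333 against 176 in WT-vehicle mice.

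The comparison of genotypes under vehicle asks how S34F-vehicle mice differ from WT-vehicle mice. Of the 7 genes other than Fn1, 6 were lower in S34F-vehicle mice by edgeR's quasi-likelihood test at FDR<10% and none was higher, and all 7 had passed the filter on low counts in every comparison. Among all 14817 genes tested in this comparison 39.5% were called, and those called lower made up 19.8% of the genes tested. The median log2 difference of the 7 was -0.22, against 0.0021 over all genes. Thbs1 and Itga5 fell by the most, and the other 4 by 0.21 to 0.27 on the log2 scale.

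Thbs1, a secreted matricellular protein that platelets and monocytes release, was at 792, 299, 681, 456 and 517 CPM in the 5 WT-vehicle mice and at 185, 207, 104, 69.0 and 87.6 in the S34F-vehicle mice. The lowest WT-vehicle mouse lay above every S34F-vehicle mouse. The log2 difference was -2.09 ± 0.37 (SE), a 4.26-fold drop, with an FDR of 0.00293. Itga5, the alpha chain of the fibronectin receptor, was at 29.0, 36.5, 28.4, 33.3 and 30.2 CPM in WT-vehicle mice and 17.8, 17.0, 24.1, 15.4 and 17.9 in S34F-vehicle mice. These groups did not overlap either, and the log2 difference was -0.78 ± 0.12 (SE), with an FDR of 0.000517. Both calls held when any single mouse was left out.

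Cd44, the most abundant of the receptors, was at 703, 668, 690.2, 704 and 712 CPM in WT-vehicle and 611, 491, 640.2, 592 and 569 in S34F-vehicle mice. Its 5 WT-vehicle values lay close together and above all S34F-vehicle values, with a log2 difference of -0.27 ± 0.09 (SE) and an FDR of 0.0333. Itgb1 differed by -0.22 ± 0.09 (SE) (FDR 0.0719), Itga4 by -0.22 ± 0.09 (SE) (FDR 0.0878) and Cd47 by -0.21 ± 0.09 (SE) (FDR 0.0761), and the groups overlapped in all 3. Leaving out 1 mouse ended the Itga4 call (FDR 0.103 to 0.181) unless that mouse was WT-vehicle mouse 4 or S34F-vehicle mouse 5. The Cd47 call was lost (FDR 0.107 to 0.159) without WT-vehicle mouse 1, 3 or 4 or S34F-vehicle mouse 1, 3 or 11, and the Itgb1 call (FDR 0.102 to 0.167) without WT-vehicle mouse 2, 3 or 5 or S34F-vehicle mouse 7 or 11. Itgb3 did not pass the test, with a log2 difference of -0.13 ± 0.11 (SE) and an FDR of 0.407. Fn1, given without a test, was at 1504, 1673, 1349.8, 1191 and 1458 CPM in WT-vehicle and 796, 784, 1140.4, 371 and 557 in S34F-vehicle mice. The groups did not overlap, and the log2 difference was -0.99 ± 0.24 (SE).

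Markers of other cells and of acute transcription were counted in the same comparison, where 39.5% of all genes tested were called. All 14 immediate-early genes, which answer stimulation or handling within minutes, were lower in S34F-vehicle mice, and their summed level went from a median of 5134 CPM (2997 to 6339) to 1387 CPM (1059 to 1779). Of 12 neutrophil markers, 4 rose and none fell, and the sum went from a median of 69650.0 CPM to 102906 CPM, with no overlap. S100a8 and S100a9 made up much of that sum, with means of 10888 and 22270 CPM in WT-vehicle and 26163 and 38693 CPM in S34F-vehicle mice. Cxcr2 (601 and 608 CPM) and Elane (396 and 382 CPM) moved little, and the median log2 difference of the 12 was 0.20. Of 14 monocyte and macrophage markers, 6 fell and none rose, although their sums overlapped (2017 to 2981 against 1606 to 2462 CPM). The 14 megakaryocyte and platelet markers summed to 79.6 to 119 CPM and 78.7 to 110 CPM, with 2 up and 3 down. For the neutrophil, the monocyte and macrophage, and the megakaryocyte and platelet markers the share called was near that over all genes. The part of these values in the members' differences was not tested.

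Under sudemycin D6, the same comparison of genotypes gave 2 calls among the 7 genes, Thbs1 and Itgb3, both lower in S34F-sudemycin mice, where 36.8% of all genes tested were called. Thbs1 was at 206, 75.8, 84.9, 200.02 and 111 CPM in WT-sudemycin mice and 52.2, 46.99, 51.8, 46.4 and 32.7 in S34F-sudemycin mice. The groups did not overlap, and the log2 difference was -1.57 ± 0.28 (SE) (FDR 0.00242). Itgb3 was at 118, 203, 196, 116 and 135 and 82.6, 123, 149, 95.2 and 96.6 CPM. These groups overlapped, since WT-sudemycin mice 8 and 9 were the highest of the 10 and S34F-sudemycin mouse 9 came next, and the log2 difference was -0.49 ± 0.19 (SE) (FDR 0.0787). Without WT-sudemycin mouse 8 or 9 or S34F-sudemycin mouse 2, 10 or 12 the Itgb3 FDR was 0.161 to 0.193. In the same comparison the megakaryocyte and platelet markers had 4 genes down and 1 up of 14. Their sums were 69.4 to 111 CPM and 60.6 to 117 CPM, and their part in the Itgb3 difference was not tested. Itgb3 had means of 153 and 109 CPM in these groups, against 22.7 and 14.1 CPM for Itga2b. Which cells the Itgb3 reads came from was not tested. All 14 immediate-early genes were lower here too.

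Itga5 did not differ between genotypes under the drug by this test, at a log2 difference of -0.05 ± 0.12 (SE) (FDR 0.786). Cd44, Itga4, Itgb1 and Cd47 had log2 differences of -0.10, -0.13, -0.14 and -0.17, with FDRs of 0.133 to 0.417, and Cd47 passed only without WT-sudemycin mouse 6 (FDR 0.0634). Fn1, untested, was higher in S34F-sudemycin than in WT-sudemycin mice by 0.35 ± 0.19 (SE), and the groups overlapped.

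The effect of the drug was compared in each genotype. In U2AF1(WT) mice 1 of the 7 genes passed the test, where 3.07% of all genes did. This gene was Thbs1, which fell from 792, 299, 681, 456 and 517 CPM under vehicle to 206, 75.8, 84.9, 200.02 and 111 under sudemycin D6. No WT-sudemycin mouse reached the lowest WT-vehicle mouse, and the log2 difference was -2.03 ± 0.35 (SE) (FDR 0.0155). The other 6 had log2 differences between -0.07 and 0.18 and FDRs of 0.436 to 0.904. In the same comparison 9 of the 14 immediate-early genes fell and none rose, and their sum went from a median of 5134 CPM (2997 to 6339) to 2737 CPM (2556 to 3160), with overlapping ranges. Their part in the Thbs1 difference was not tested. Fn1, untested, was at 1074, 736, 935, 937 and 862 CPM after the drug, below every WT-vehicle mouse, a log2 difference of -0.68 ± 0.13 (SE).

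In U2AF1(S34F) mice the drug changed 3 of the 7 genes, where 10.8% of all genes passed the test. Thbs1 fell again, from 185, 207, 104, 69.0 and 87.6 CPM to 52.2, 46.99, 51.8, 46.4 and 32.7, with no overlap, a log2 difference of -1.51 ± 0.29 (SE) and an FDR of 0.0189. Here 6 of the 14 immediate-early genes fell and none rose, and their sum went from a median of 1387 CPM (1059 to 1779) to 1054 CPM (963 to 1195), again with overlapping ranges. Their part in the Thbs1 difference was not tested. Itga5 rose from 17.8, 17.0, 24.1, 15.4 and 17.9 to 31.6, 27.7, 27.3, 35.4 and 25.1 CPM, also with no overlap, by 0.67 ± 0.12 (SE) on the log2 scale (FDR 0.0109). All 5 S34F-sudemycin values of Itga5 lay within the range of the U2AF1(WT) mice, 23.1 to 36.5 CPM. Cd47 rose from 216, 193, 243, 251 and 230.2 to 263, 260.4, 284, 266 and 257 CPM, by 0.23 ± 0.07 (SE) (FDR 0.0928), and this call held only without S34F-vehicle mouse 5 or 7, the FDR without each of the other 8 mice being 0.124 to 0.183. Fn1, untested, went from 796, 784, 1140.4, 371 and 557 to 1344, 1508, 671, 1338 and 952 CPM, with overlapping groups and a log2 difference of 0.67 ± 0.30 (SE). Monocyte and macrophage markers summed to 1606 to 2462 CPM before and 2193 to 3049 after the drug in these mice, with 1 of 14 called, and their part in the Fn1, Itga5 or Cd47 values was not tested.

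**Figure D2:**
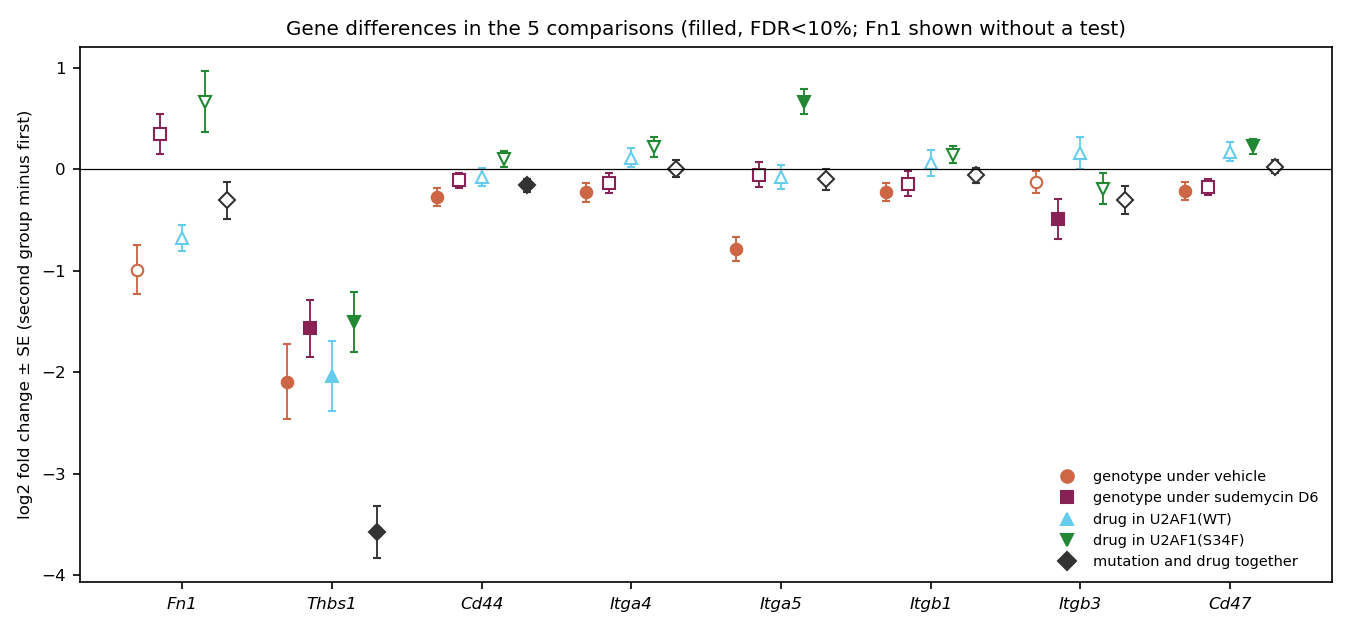
Log2 fold change with its SE (vertical axis) of each of the 8 genes in the 5 comparisons, second group minus first. Filled symbols passed FDR<10% and Fn1 is drawn open because it was not tested. Thbs1 is below 0 in all 5 comparisons, and Itga5 is at -0.78 for genotype under vehicle and at 0.67 for the drug in U2AF1(S34F).

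Whether the drug effect differed between genotypes was tested with an interaction term on all 20 mice. None of the 7 genes was called by edgeR, where 0.013% of all genes were. The largest interaction among the 7 was that of Itga5, 0.72 ± 0.18 (SE), with an FDR of 0.247 by edgeR and of 0.0304 by DESeq2, so for Itga5 the call rests on the tool. For Thbs1 the interaction was 0.51 ± 0.48 (SE) (FDR 0.881). Fn1, untested, had an interaction of 1.33 ± 0.33 (SE).

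Mutation and drug together, S34F-sudemycin against WT-vehicle mice, changed 2 of the 7 genes, where 50.2% of all genes passed the test. Thbs1 went from a mean of 549 to 46.0 CPM, an 11.9-fold drop with a log2 difference of -3.58 ± 0.25 (SE) (FDR 3.96e-06). The 5 S34F-sudemycin mice lay between 32.7 and 52.2 CPM, far below the lowest WT-vehicle mouse at 299. Cd44 had a log2 difference of -0.15 ± 0.06 (SE) (FDR 0.0655), and this call was lost, at FDRs of 0.101 to 0.126, without WT-vehicle mouse 1, 3 or 5 or S34F-sudemycin mouse 9 or 10. Itga4, Itga5, Itgb1 and Cd47 had log2 differences of 0.01, -0.10, -0.06 and 0.03. Itgb3 was just outside the threshold, with -0.30 ± 0.14 (SE) and an FDR of 0.102, and it passed without WT-vehicle mouse 2 or S34F-sudemycin mouse 6 or 9 (FDR 0.0941, 0.0835 and 0.0119). In the same comparison, 9 of the 14 megakaryocyte and platelet markers fell and 2 rose, with sums of 79.6 to 119 CPM in WT-vehicle and 60.6 to 117 CPM in S34F-sudemycin mice, and all 14 immediate-early genes fell, to 963 to 1195 CPM in sum. Their part in the members' differences was not tested. Over the 4 groups the order of Thbs1 was therefore WT-vehicle, then WT-sudemycin and S34F-vehicle, whose values overlapped, then S34F-sudemycin. For Itga5 the S34F-vehicle group lay lowest, with its highest mouse (24.1 CPM) above the lowest WT-sudemycin mouse (23.1 CPM), and the other 3 groups overlapped each other.

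The patterns of single genes over the 20 mice were compared by Pearson's correlation of log2 CPM among 8388 genes with a mean of at least 10 CPM. All these genes share the same libraries and the same 4 groups, so the values only describe which genes ran alongside. Thbs1 was nearest to Ptgs2 (r = 0.94), Egr1 and Btg1 (both 0.93). Fn1 was nearest to Pld4 (0.97), Ahnak and Ptpro (both 0.95). Itga5 was nearest to Lrp1 (0.94), Cdc42bpb (0.92) and Inf2 (0.91). Slc8a1 was the nearest gene to both Itga4 (0.91) and Itgb1 (0.90), and these 2 integrin subunits had an r of 0.84 with each other, the highest between any members. Cd44 was nearest to Ncoa3, Ep300 and Parp4 (all 0.91), Cd47 to Prkar2a (0.95), Zfp384 and Plscr3 (both 0.94), and Itgb3 to Hip1r and Rps6kc1 (both 0.91) and Slc9a3r1 (0.90). Thbs1 had no close partner among the members, its highest r being 0.39, with Fn1.

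The rest of the pathway was read from lists of related genes, without the 8 members. The counts below are to be set beside the shares called over all genes, 39.5% by genotype under vehicle, 3.07% by the drug in U2AF1(WT), 10.8% by the drug in U2AF1(S34F), 36.8% by genotype under sudemycin D6 and 50.2% by both together. In both genotype comparisons and for both together, the integrin, matrix and proteases lists each had a smaller or similar share called, and nothing particular to them is read from the counts. For the drug in U2AF1(S34F), the integrin list (1 up and 5 down of 20) and the matrix list (7 up and 6 down of 48) had a larger share called than the 10.8% over all genes. The lists were not tested as sets. Of 20 other integrin subunits tested under vehicle, 1 was higher and 5 were lower in S34F-vehicle mice, with a median log2 difference of -0.14. The rise was Itgax, the alpha chain of dendritic and myeloid cells (0.46 ± 0.14 SE, FDR 0.0222), and Itgal, the alpha chain of LFA-1, fell from 473 ± 90.02 to 316 ± 34.9 CPM (FDR 0.00398). Under sudemycin D6 the counts were 1 up and 3 down of 19. Itga1 rose by 0.75 and Itga2b, the platelet partner of Itgb3, fell by 0.69 (FDR 0.0129), from 22.7 ± 5.43 to 14.1 ± 2.93 CPM. The drug changed none of the 20 in U2AF1(WT) mice. In U2AF1(S34F) mice it raised 1 and lowered 5, among them Itgax (-0.80, FDR 0.00648) and Itga8 (-1.69, FDR 0.00215). Mutation and drug together lowered 8 of 20 and raised none, with Itga2b at -1.11 (FDR 0.000193).

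Matrix and matricellular genes moved in both directions. Of 48 tested in 4 of the comparisons, 3 were higher and 8 lower by genotype under vehicle, 7 and 6 by the drug in U2AF1(S34F), 4 and 5 by genotype under sudemycin D6, and 6 and 11 by both together. In U2AF1(WT) mice the drug changed 3 of 47, raising Thbs4 and lowering the proteoglycan genes Agrn and Srgn. Col1a1, a chain of type I collagen, was lower in U2AF1(S34F) mice under vehicle (10.7 ± 2.47 to 4.87 ± 0.94 CPM, FDR 0.000657) and under sudemycin D6 (13.2 ± 2.88 to 5.45 ± 0.59 CPM, FDR 0.000232). Vcan, the hyaluronan-binding proteoglycan versican, rose with the drug in U2AF1(S34F) mice from 53.6 ± 33.1 to 178 ± 38.6 CPM (FDR 0.022), with no overlap. Agrn fell with the drug in both genotypes, by 1.13 and 1.19 on the log2 scale, and Thbs4, a relative of Thbs1 at 0.38 to 1.46 CPM, rose in both. The 14 stromal and osteolineage markers summed to between 105 and 273 CPM over all mice, and the part of stromal RNA in these values was not tested.

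Among 27 other matrix receptors and counter-receptors, 2 were higher and 6 lower by genotype under vehicle, 3 and 8 under sudemycin D6, and 3 and 10 by both together, while the drug changed none in either genotype at this threshold. Vcam1, the counter-receptor of α4β1, was higher in S34F-vehicle than in WT-vehicle mice (87.1 ± 11.7 to 144 ± 36.2 CPM, FDR 0.00469), and Hmmr, a hyaluronan receptor, was higher too (72.5 ± 18.3 to 106 ± 4.86 CPM, FDR 0.0116). Of 34 genes of integrin activation and focal adhesion, 4 rose and 9 fell by genotype under vehicle and 7 fell under sudemycin D6. Zyx (zyxin) went from 446 ± 98.3 to 247 ± 35.6 CPM (FDR 0.00114), and Parvb from 15.4 ± 4.24 to 6.67 ± 1.06 CPM (FDR 0.000519). The drug called none of the 34 in U2AF1(WT) mice and raised 3 in U2AF1(S34F) mice, Tln2, Zyx and Actn4. Of 27 matrix proteases, inhibitors and cross-linkers, 5 rose and 3 fell by genotype under vehicle, 4 rose and 7 fell by genotype under sudemycin D6, and 6 rose and 4 fell by both together. The drug changed 1 in U2AF1(WT) and 2 in U2AF1(S34F) mice, and the inhibitor Serpinb2 fell in both, from 3.16 ± 0.78 to 1.503 ± 0.50 CPM and from 1.47 ± 0.27 to 0.78 ± 0.20 CPM.

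Splicing was read from junction counts, with the percent spliced in (Ψ) of a cassette exon and, for junctions that share a splice site, the share of each junction at that site. Calls need an FDR<10% and a difference over 1 percentage point. The test used (edgeR with the negative binomial dispersion set to 0) had been picked in earlier work on these data, where most other formulations gave no call, and limma and an estimated dispersion call far fewer, so per-mouse values, limma's FDR and an exact two-sided permutation p (0.00794 at the least, with 5 mice against 5) are given for the events described, where they could be computed. Among cassette events of the 7 genes, 2 of 93 were called for genotype under vehicle, 1 of 80 for the drug in U2AF1(WT), 2 of 90 for the drug in U2AF1(S34F), 1 of 84 for genotype under sudemycin D6 and 12 of 93 for both together. Over all events the shares called were 3.19%, 1.09%, 1.25%, 2.88% and 6.27%. Of the 12 events, 9 lay in Cd44, whose overlapping variable exons gave 70 of the 93 events tested and share reads. For splice site shares the counts were 6 of 136, 3 of 135, 4 of 127, 5 of 125 and 11 of 132, against 2.89%, 0.81%, 0.956%, 2.72% and 5.53% over all shares. With an estimated dispersion no event or share of the 7 genes was called in the fits that ran.

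Fn1 is given first, as a description. The EDA exon was included at 8.61, 11.3, 8.87, 7.79 and 9.77% in the 5 WT-vehicle mice and at 15.2, 13.6, 9.80, 17.4 and 18.7% in the WT-sudemycin mice. It stood at 16.9, 15.0, 16.8, 14.7 and 17.3% in S34F-vehicle and at 27.1, 21.1, 21.0, 25.4 and 27.2% in S34F-sudemycin mice. The group means were 9.26 ± 1.32, 14.9 ± 3.47, 16.1 ± 1.24 and 24.4 ± 3.104% (mean ± SD, n = 5), so inclusion was lowest with neither mutation nor drug and highest with both. Of the 5 comparisons, the groups overlapped in the drug comparison of U2AF1(WT) mice, where WT-sudemycin mouse 9 at 9.80% lay below WT-vehicle mouse 2 at 11.3%. WT-sudemycin and S34F-vehicle mice, not compared by the design, also overlapped. Each mouse had 189 to 1315 reads that included EDA and 550 to 2973 that skipped it. These values chose the gene and carry no test.

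The other Fn1 regions did not all follow EDA. The EDB exon (chr1:71660337-71660609, 273 bases, 91 codons) was included in 0.57 ± 0.25, 0.73 ± 0.28, 0.87 ± 0.44 and 0.62 ± 0.27% of transcripts in the 4 groups, on 9 to 58 inclusion reads per mouse, and all groups overlapped. Plasma and tissue fibronectin differ in these domains, and EDB is known as an embryonic and wound form. At the variable region the long form took 41.04, 45.9, 43.2, 42.2 and 42.6% of the reads from the shared 5′ splice site in WT-vehicle mice and 49.8, 54.3, 45.3, 42.9 and 55.0% in WT-sudemycin mice. In S34F-vehicle mice it took 27.1, 28.6, 28.4, 37.3 and 26.1%, and in S34F-sudemycin mice 28.1, 33.6, 23.3, 29.6 and 28.4%. No U2AF1(S34F) mouse reached the lowest U2AF1(WT) mouse at 41.04%, whatever the treatment.

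The form shorter by 75 bases, which lacks that first segment, had means of 39.3 ± 2.08, 34.6 ± 4.33, 46.4 ± 2.48 and 46.9 ± 2.19% in WT-vehicle, WT-sudemycin, S34F-vehicle and S34F-sudemycin mice. The form shorter by 360 bases, which leaves out still more of the region, was at 16.1 ± 0.88, 14.7 ± 1.81, 22.9 ± 2.51 and 24.1 ± 2.26%. In both short forms the genotypes did not overlap under either treatment, and the drug groups overlapped within each genotype. The difference in the long form was -13.5 percentage points by genotype under vehicle, -20.9 under sudemycin D6, 6.46 by the drug in U2AF1(WT) and -0.91 by the drug in U2AF1(S34F). The acceptors of both short forms are not in the annotation used, the site had a mean of 1672 to 2800 reads per mouse, and 6 further junctions from it took at most 3.96% of reads in any mouse. Mean EDA inclusion was higher with the mutation and with the drug, while the variable region differed by genotype and overlapped between treatments.

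**Figure D3:**
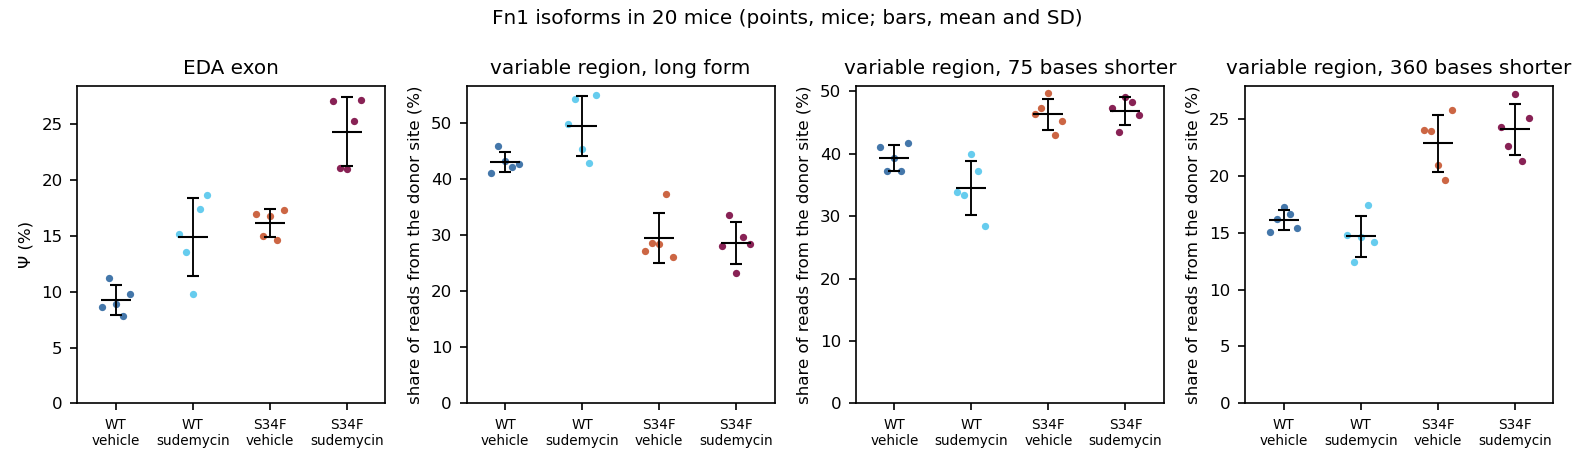
Inclusion of the Fn1 EDA exon (Ψ, left) and the shares of the 3 forms of the variable region among reads from their common 5′ splice site, in percent, for the 20 mice with the mean and SD of each group of 5. EDA means run from 9.26% in WT-vehicle to 24.4% in S34F-sudemycin mice, and the long form takes 23.3 to 37.3% of reads in U2AF1(S34F) mice against 41.04 to 55.0% in U2AF1(WT) mice.

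Cd47 had 2 exons that passed the test. Its 63-base exon (21 codons) was included at 35.6, 34.4, 30.1, 27.1 and 28.7% in WT-vehicle and 18.6, 19.3, 29.5, 24.8 and 21.8% in S34F-vehicle mice. S34F-vehicle mouse 5, at 29.5%, lay inside the WT-vehicle range and the other 4 lay below it. The difference was -8.36 points (FDR 0.000556 by edgeR and 0.217 by limma, exact permutation p = 0.0238). Under sudemycin D6 the exon was at 34.5, 32.7, 32.5, 26.4 and 29.3% with U2AF1(WT) and 23.0, 25.7, 20.6, 23.5 and 22.2% with U2AF1(S34F). These groups did not overlap and differed by -8.05 points (FDR 2.73e-05 by edgeR, 0.0753 by limma, exact permutation p = 0.00794). Mutation and drug together gave -8.15 points (FDR 1.09e-05 by edgeR, 0.0501 by limma, exact permutation p = 0.00794). The drug moved it by -0.10 points in U2AF1(WT) and 0.21 in U2AF1(S34F) mice, and neither passed the test. All 3 calls held without any single mouse. The junction that skips this exon took 65.6 ± 5.07% of the reads from its 5′ splice site in WT-vehicle mice and 75.1 ± 5.51% in S34F-vehicle mice (FDR 0.00985 by edgeR, 0.287 by limma, exact permutation p = 0.0317), on the same reads.

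The 32-base exon of Cd47, whose length is no multiple of a codon, passed the test in both drug comparisons and in that of mutation and drug together. It was included at 97.1, 95.2, 95.3, 96.6 and 96.0% in WT-vehicle and 95.7, 89.5, 93.7, 90.7 and 88.7% in WT-sudemycin mice, so skipping went from a mean of 101 to 259 reads. Treated mouse 6 stayed in the vehicle range, and the difference was -4.38 points (FDR 0.000707 by edgeR, 0.376 by limma, exact permutation p = 0.0238). In U2AF1(S34F) mice it went from 96.6, 97.0, 96.0, 98.0 and 96.4% to 93.4, 92.2, 93.3, 95.5 and 94.2%. These groups did not overlap and differed by -3.07 points (FDR 0.000637 by edgeR, 0.116 by limma, exact permutation p = 0.00794). Mutation and drug together gave -2.30 points (FDR 0.012 by edgeR, 0.118 by limma, exact permutation p = 0.0238). By genotype it differed by 0.76 points under vehicle and 2.07 under sudemycin D6, neither past the test, and leaving out no single mouse ended a call.

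Downstream of that exon lies the unannotated exon of 25 bases, read from junctions with 1 unannotated end and described without a test. It received 12.03, 7.44, 9.25, 6.89 and 5.39% of the reads leaving the 32-base exon in WT-vehicle and 11.8, 9.35, 7.23, 12.5 and 11.02% in WT-sudemycin mice. In S34F-vehicle mice it received 10.6, 11.6, 10.7, 9.73 and 10.6% and in S34F-sudemycin mice 13.6, 13.8, 14.3, 11.004 and 14.1%. The group means were 8.20 ± 2.55, 10.4 ± 2.12, 10.6 ± 0.65 and 13.4 ± 1.35%, highest with mutation and drug together. Every pair of groups overlapped, and S34F-sudemycin mouse 10 at 11.004% lay below the highest mouse of each other group. A mean of 226 to 452 reads per group entered it and 214 to 418 left it.

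**Figure D4:**
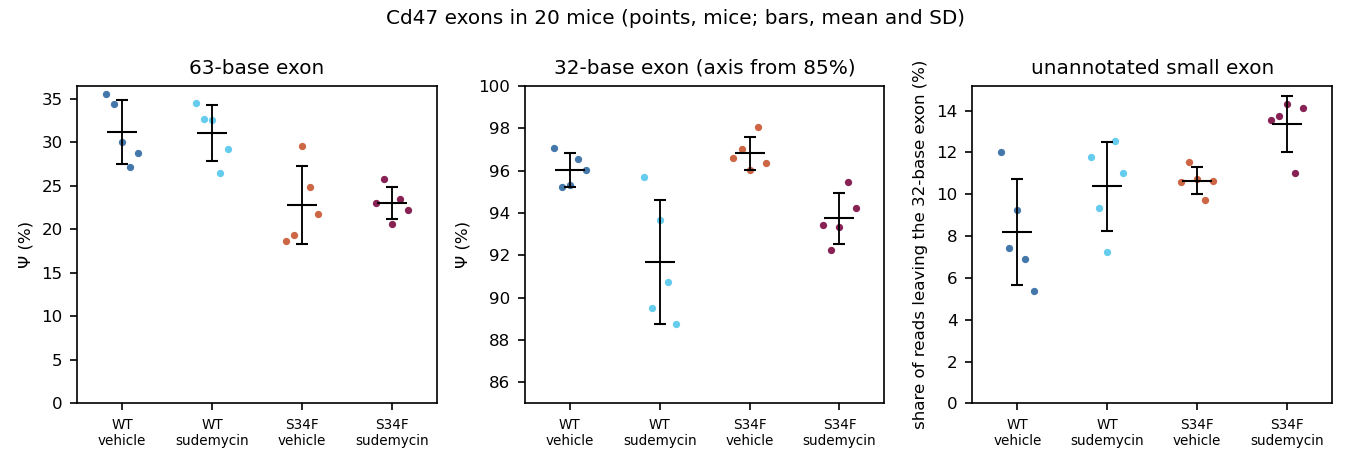
Use of 3 Cd47 exons in percent for the 20 mice, with the mean and SD of each group of 5: Ψ of the 63-base exon, Ψ of the 32-base exon (axis starting at 85%), and the share of reads from the 32-base exon that join the unannotated exon. The 63-base exon has means of 31.2, 31.1, 22.8 and 23.0% in WT-vehicle, WT-sudemycin, S34F-vehicle and S34F-sudemycin mice, and the 32-base exon 96.0, 91.7, 96.8 and 93.7%.

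Cd44 was read in its standard form in most transcripts. The junction that joins the constant exons on either side of the variable exons (chr2:102668767-102693172) took 94.6, 92.2, 93.7, 96.0 and 93.9% of the reads from its 5′ splice site in WT-vehicle and 92.2, 92.9, 89.8, 89.6 and 91.6% in S34F-vehicle mice. The highest S34F-vehicle mouse lay just above the lowest WT-vehicle mouse, and the difference was -2.86 points (FDR 0.0245 by edgeR, 0.231 by limma, exact permutation p = 0.0159). Without S34F-vehicle mouse 7 the FDR was 0.102. Under sudemycin D6 the shares were 96.0, 94.8, 96.8, 94.2 and 95.3% and 93.7, 93.3, 92.9, 92.7 and 93.4%. These did not overlap and differed by -2.20 points (FDR 0.0422 by edgeR, 0.103 by limma, exact permutation p = 0.00794), a call lost without S34F-sudemycin mouse 9 or 10 (FDR 0.117 and 0.126). The drug moved the share by 1.35 points in U2AF1(WT) and 2.02 in U2AF1(S34F) mice, with FDRs of 0.521 and 0.15.

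The junction into v3 took 2.76, 2.97, 2.89, 2.13 and 2.67% in WT-vehicle and 4.63, 2.92, 5.45, 4.95 and 4.48% in S34F-vehicle mice. Of the S34F-vehicle mice, 4 lay above every WT-vehicle mouse, with a difference of 1.80 points (FDR 0.0257 by edgeR, 0.156 by limma, exact permutation p = 0.0159) and an FDR of 0.107 without S34F-vehicle mouse 5. Among drug-treated mice it took 2.31, 2.55, 0, 3.18 and 2.98% with U2AF1(WT) and 3.31, 3.42, 3.28, 4.198 and 3.54% with U2AF1(S34F). These groups did not overlap, and the difference of 1.34 points did not pass the test (FDR 0.312 by edgeR, 0.437 by limma, exact permutation p = 0.00794). The value of 0 belongs to this junction alone, since v3 inclusion over all junctions was 1.38% in that mouse, WT-sudemycin mouse 9, and 1.38% in WT-sudemycin mouse 8. The v3 exon is known as the variable exon that carries heparan sulphate and binds growth factors.

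Variable exons were rare in all groups. Mean Ψ, with every junction that skips the exon counted against it, ran from 0.60% (v4) to 4.49% (v10) in WT-vehicle, 0.58% (v1) to 3.28% (v10) in WT-sudemycin, 1.40% (v1) to 4.995% (v10) in S34F-vehicle and 1.18% to 3.74% in S34F-sudemycin mice. For v3 the means were 2.15 ± 0.41, 1.70 ± 0.36, 3.84 ± 0.53 and 2.98 ± 0.19% in that order of groups, with 63.2 to 112 inclusion reads per mouse on average. Among U2AF1(S34F) mice v4 was at 1.91 ± 0.32 and 1.70 ± 0.17% under vehicle and drug, against 0.60 ± 0.13 and 0.68 ± 0.48% in U2AF1(WT) mice, with no overlap of genotypes under either treatment. For v3 and v4 each, every U2AF1(S34F) mouse lay above every U2AF1(WT) mouse. Within each treatment, v5 and v9 did not overlap by genotype either. For v5 the highest U2AF1(WT) and lowest U2AF1(S34F) mouse were at 1.17 and 1.29% under vehicle and 0.94 and 1.07% under the drug. For v9 they were at 1.82 and 2.31%, and at 1.41 and 1.69%. The remaining variable exons overlapped by genotype under vehicle. These values over all skipping junctions were not tested.

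**Figure D5:**
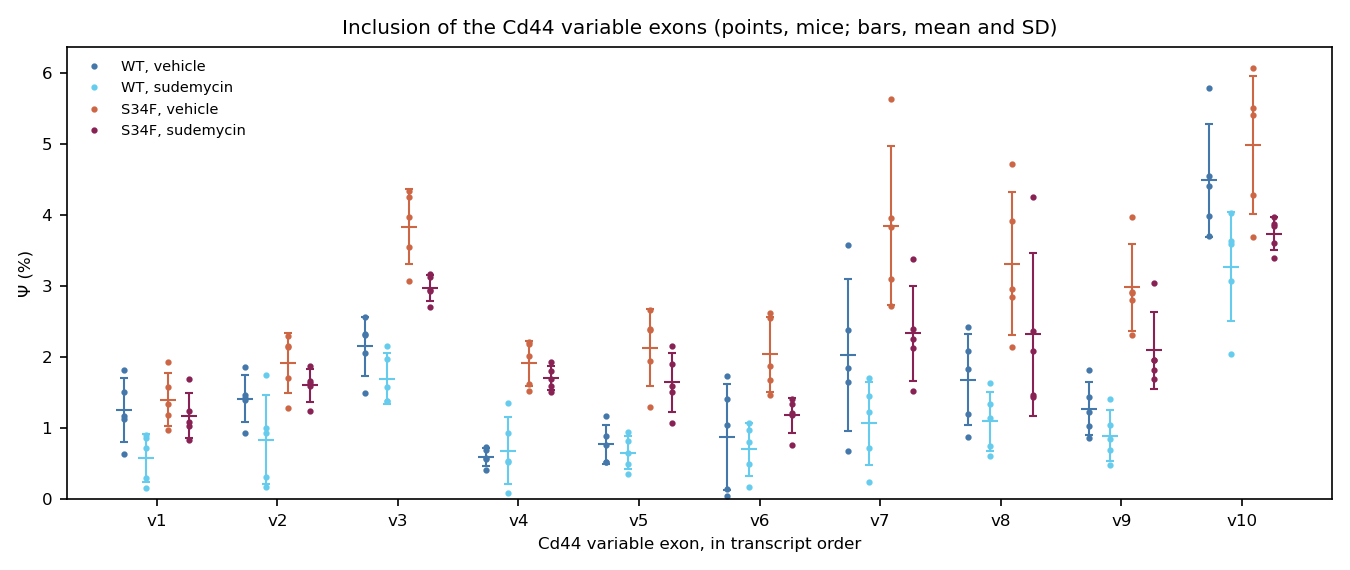
Inclusion (Ψ, percent) of the 10 variable exons of Cd44 in transcript order, for each of the 20 mice with the mean and SD of each group of 5. The means run from 0.58 to 4.995%, and for v3 the group means are 2.15, 1.70, 3.84 and 2.98% in WT-vehicle, WT-sudemycin, S34F-vehicle and S34F-sudemycin mice.

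Of the Cd44 events called for mutation and drug together, the named ones rest on few reads. Inclusion of v7 between v5 and the downstream constant exon was at 89.5, 71.4, 69.2, 100 and 100% in WT-vehicle and 40.0, 48.3, 60, 38.5 and 42.2% in S34F-sudemycin mice, on 10 to 45 inclusion and 0 to 15 skipping reads per mouse. These groups did not overlap and differed by -40.2 points (FDR 0.0378 by edgeR, 0.0273 by limma, exact permutation p = 0.00794), with an FDR of 0.13 without WT-vehicle mouse 5. The junction between v5 and v7 (chr2:102678095-102682418) was at 54.8 ± 13.2% and 25.6 ± 4.86% of its 5′ splice site in the same groups (FDR 0.0354 by edgeR, 0.0468 by limma, exact permutation p = 0.00794). This call was lost without WT-vehicle mouse 5 (FDR 0.174) or S34F-sudemycin mouse 2 (FDR 0.101). In WT-sudemycin and S34F-vehicle mice v7 was at 32.4 ± 24.4 and 75.1 ± 11.1%, with no reads in WT-sudemycin mouse 8, and the junction at 12.9 ± 20.4 and 40.3 ± 11.2%. For v7 the difference was -53.6 points for the drug in U2AF1(WT), -29.3 for the drug in U2AF1(S34F) and -10.9 by genotype under vehicle. None of these was called by edgeR. Between the upstream constant exon and v4, v1 was at 62.4 ± 38.3% and 9.19 ± 11.3%, with WT-vehicle mice from 0 to 100% on 0 to 35 inclusion reads (FDR 0.00463 by edgeR, 0.176 by limma, exact permutation p = 0.0476). For v4 between the upstream constant exon and v8 the difference was 49.7 points at an FDR of 0.0579, on a mean of 4.0 inclusion and 4.6 skipping reads per WT-vehicle mouse, with none in WT-vehicle mouse 3, so limma and the permutation gave no value, and the FDR was 0.102 to 0.282 without WT-vehicle mouse 1 or 5 or S34F-sudemycin mouse 2, 10 or 12.

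Itga4 and Itgb3 each had a rarely skipped exon. The 122-base exon of Itga4 (chr2:79096335-79096456, plus strand) was included at 100, 100, 98.4, 100 and 99.7% in WT-vehicle and 95.1, 97.7, 98.1, 97.5 and 98.8% in S34F-sudemycin mice. WT-vehicle mouse 3 overlapped the treated mice, and skipping rose from a mean of 1.8 to 13 reads. The difference was -2.19 points (FDR 0.028 by edgeR, 0.165 by limma, exact permutation p = 0.0159), with an FDR of 0.13 without S34F-sudemycin mouse 2, which had 25 skipping reads. The means were 98.9 ± 0.84% in WT-sudemycin and 99.1 ± 0.45% in S34F-vehicle mice. The 86-base exon of Itgb3 (chr11:104484725-104484810, plus strand) was at 100, 99.6, 98.2, 99.6 and 100% in S34F-vehicle and 95.7, 91.2, 99.3, 96.0 and 93.7% in S34F-sudemycin mice. The difference of -4.26 points had an FDR of 0.0935 by edgeR and 0.344 by limma (exact permutation p = 0.0159), and this call remained only without S34F-vehicle mouse 5 or S34F-sudemycin mouse 9, the FDR without each of the others being 0.131 to 0.354. S34F-sudemycin mouse 9 lay in the vehicle range. WT-sudemycin mice, at 93.9 to 99.0%, overlapped WT-vehicle mice, at 95.5 to 100%. No cassette event or splice site share of Thbs1, Itga5 or Itgb1 was called in any comparison, where 1 to 4, 1 to 4 and 1 cassette events were tested.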

How the data were processed

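The authors deposited gene counts and junction counts for 20 bulk bone marrow samples, and the deposited counts carried no normalization. The submitters' processing notes name TopHat2 2.0.8, SAMtools and mm9, and the program that counted reads on genes is not given in the sources used here. Genes were tested with edgeR 4.0.16 (quasi-likelihood, robust, TMM, filterByExpr, prior count 2) in R 4.3.3, with Benjamini-Hochberg adjustment over all genes tested and FDR<10%. CPM values come from the same counts. Cassette exons and splice site shares were built from junctions with both ends annotated and tested with edgeR at a negative binomial dispersion of 0. Events entered a test where mice averaged 10 or more reads in all, and 1 or more on each isoform. That reading of a filter on both isoforms was picked after comparing filters with counts described by an earlier analysis. The dispersion of 0 was likewise taken from earlier work on these data. The members and lists were chosen with earlier results of these data known. The genes named are all members, at most 3 up and 3 down per list and comparison by fold change among those called, called splicing events (at most 3 a member), and the 3 most correlated genes. Alternatives used limma 3.58.1 and DESeq2 1.42.0. The genes of the integrin activation list numbered 37, of which 36 were in the count table, and Syk was not analysed here. Scripts were tested on simulated data.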

Additional observations from a re-analysis of the deposited data

Results flagged for a closer look

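In 94 sets of 5 values (1 member value in 1 group), the highest and the lowest mouse were compared with the others by Dixon's ratio, whose 95% critical value for 5 samples is 0.71. Chance alone sets apart about 1 group in 20, and 8 were set apart here. For Itga5, S34F-vehicle mouse 5 had 24.1 CPM, above the next mouse at 17.9. For the Cd44 junction into v3, WT-sudemycin mouse 9 had a share of 0% where the next had 2.31%, and S34F-sudemycin mouse 10 had 4.198% where the next had 3.54%. Over all junctions, v3 inclusion in WT-sudemycin mouse 9 was 1.38%. For the Itga4 122-base exon, WT-vehicle mouse 3 was at 98.4%, below the next at 99.7%. For the Itgb3 86-base exon, WT-vehicle mouse 2 was at 95.5% and S34F-vehicle mouse 5 at 98.2%. For the long form of the Fn1 variable region, S34F-vehicle mouse 7 was at 37.3%, above the next at 28.6%. For the unannotated Cd47 exon, S34F-sudemycin mouse 10 was at 11.004%, below the next at 13.6%.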

How the results depend on the processing

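Counts of member genes called moved by over 1.5 times in these fits. Under vehicle the 6 genotype calls became 3 without a filter on low counts and 3 at FDR<5%, and under sudemycin D6 the 2 became 1 in both settings. For mutation and drug together the 2 became 1 without the filter, in one model of all mice, and at FDR<5%. The interaction called 0 by edgeR and 1 by DESeq2. With DESeq2 or its size factors, no other member count moved that far.

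Splicing calls depended most on the dispersion and the tool. With an estimated dispersion every count of cassette events and shares that could be fitted was 0, and for shares in the drug comparison of U2AF1(S34F) mice it could not be fitted. With limma the cassette counts in the order genotype under vehicle, drug in U2AF1(WT), drug in U2AF1(S34F) and both together went from 2, 1, 2 and 12 to 0, 0, 0 and 5, and the share counts, with genotype under sudemycin D6 before both together, from 6, 3, 4, 5 and 11 to 0, 0, 0, 2 and 7. At a difference over 5 points the cassette counts were 1, 0 and 0 in the first 3 comparisons, and the share counts were 0 in both drug comparisons and 5 for both together. With any read on both isoforms, an alternative chosen after seeing the data, cassette counts were 2 for the drug in U2AF1(WT) and 2 for genotype under sudemycin D6.

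Leaving out each mouse gave 3 to 6, 1 to 1, 2 to 3, 1 to 3 and 1 to 3 member genes called in the order genotype under vehicle, drug in U2AF1(WT), drug in U2AF1(S34F), genotype under sudemycin D6 and both together. For cassette events it gave 2 to 3, 1 to 1, 1 to 2, 1 to 2 and 7 to 12, and for shares 5 to 6, 3 to 4, 3 to 5, 4 to 8 and 7 to 12. Among the log2 differences, the sign was reversed in 8 refits, all of differences near 0 that were not called. Some splicing differences that were not called changed sign too, such as that of the Cd47 63-base exon for the drug in U2AF1(WT), from -1.12 to 1.06 points. Itga5 for the drug in U2AF1(WT) ran from -0.131 to 0.0165 (without WT-sudemycin mouse 9), and Itgb1 from -0.0299 (without mouse 12) to 0.135. Itga5 by genotype under sudemycin D6 ran from -0.124 to 0.00911 without S34F-sudemycin mouse 12 and 0.0182 without WT-sudemycin mouse 10. Itga4 for both together ran from -0.0314 (without S34F-sudemycin mouse 6) to 0.0568, with -0.0039, -0.0291 and -0.0223 without WT-vehicle mouse 1 or 4 or S34F-sudemycin mouse 10. Among other single values, 274 kept direction and side, 93 lost and 3 gained a call under the other settings, and 548, 70 and 4 did so when a mouse was left out.

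The genotype groups share the numbers 1, 3 and 5 under vehicle and 6, 9, 10 and 12 under sudemycin D6. Deviations of same-numbered mice correlated at 0.0662, 0.133 and -0.0479, and at 0.0731, 0.116, 0.211 and -0.111. Mice of different numbers were not compared in this way, so these values cannot tell whether an equal number marks a pairing. With the replicate block, which uses only those mice, member genes called were 3 under vehicle and 1 under sudemycin D6 (5 and 1 in the same mice without the block), cassette events 0 and 1 (1 and 1 without it) and shares 0 and 2 (0 and 5 without it). For the other 3 comparisons, no paired analysis was possible because their groups share fewer than 2 numbers.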

Other observations

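Markers of other marrow cells were also counted for mutation and drug together, where 50.2% of all genes were called. Of 10 B cell markers, all 10 fell against WT-vehicle mice, with sums of 49.3 to 186 CPM there and 45.1 to 64.7 CPM in S34F-sudemycin mice. By genotype under sudemycin D6, where 36.8% of all genes were called, 7 of the 10 fell. Of 10 endothelial markers 8 fell, and of 10 markers of T and NK cells 7 fell and 2 rose. Of 11 erythroid markers 5 fell, near the share over all genes, with overlapping sums of 322 to 755 and 359 to 706 CPM. In the comparison of genotypes under vehicle none of the B cell or erythroid markers was called.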
